A study of Arabidopsis thaliana with 30 samples.

Results

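Narrow sites of open chromatin that were called in every library of an Arabidopsis thaliana ATAC-seq series are described here. The sites were chosen by the width of the peak in Col-0 shoot replicate 1 and by the presence of a peak in all 30 lists. They are the peaks of that library that were less than 800 bp wide and that overlapped, by at least 1 bp, a peak in each of the other 29 peak lists. Of the 20477 peaks in that library, 10562 met the rule, which is 51.6%. Widths in that library and presence in the lists are therefore given as a description. A called peak needs some height over background, so presence in all lists also sets a lower bound on the heights, and differences in height are those that remain among sites above it.

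ATAC-seq marks open DNA by where the Tn5 transposase inserts its adapters. The 30 libraries fell into 15 groups of 2, labelled as repeats, and nothing says that the repeats came from separate plants, so p-values measure the spread between these samples. Wild-type Col-0 was sampled as root and shoot of 2-week plants and as stem of 4-week plants. The other 12 groups were shoots of 2-week mutants: ros1-4, rdd-2, drdd, met1-9, nrpd1-3, gcn5, hda6, sdg2-4, and the doubles nrpd1-3 ros1-4, gcn5 ros1-4, hda6 ros1-4 and sdg2-4 ros1-4. For gcn5, hda6 and drdd the labels name no allele. All plants shared 1 growth regime at 22 °C with 16 h light and 8 h dark.

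In plants, as in other eukaryotes, most promoters of genes in use are kept free of nucleosomes over a short stretch next to the transcribed part, where transcription factors and RNA polymerase bind. Housekeeping genes, such as those for ribosomal proteins, tend to keep this opening in all organs, while genes of organ identity open it in some cells. ROS1 is a DNA glycosylase that removes methylated cytosines, and DML2, DML3 and DME are its relatives; rdd plants lack ROS1, DML2 and DML3, and drdd plants lack DME as well. MET1 copies CG methylation, NRPD1 is the largest subunit of Pol IV, the polymerase that feeds RNA-directed methylation of DNA, GCN5 acetylates histones, HDA6 removes acetyl groups and SDG2 methylates lysine 4 of histone H3.

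The lists held 734458 peaks in all, from 17315 in stem replicate 1 to 38392 in met1-9 replicate 1. They give the fold, which is the pileup of fragments at the summit over the local background, and no read counts. At the narrow sites the library medians of the fold ran from 4.94 in stem replicate 1 to 9.15 in met1-9 replicate 1, and the median background was highest in gcn5 replicate 2, at 46.2 fragments, and lowest in sdg2-4 replicate 2, at 6.65. Libraries were therefore compared by test only after quantile normalisation of the fold. Photosynthesis genes with a peak numbered 17 of 17 in every shoot library, 15 in both stem libraries and 10 or 11 in root, and root genes numbered 13 or 14 of 16 in root against 7 to 12 elsewhere. Secondary wall genes numbered 14 to 16 of 18 in stem, 12 in root and 9 to 14 in shoot. A peak at ROS1 was called in all libraries, ros1 mutants included, and a peak at an end of the gene does not check an allele. Numbers in the peak names differ in range between Col-0 shoot and the root, stem, hda6, sdg2-4, gcn5 and met1-9 libraries, and the met1-9 names contain the word leaf. What the numbers stand for is not given, so preparation and group cannot be told apart in those comparisons with Col-0 shoot.

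Most narrow peaks of the Col-0 shoot library were close to universal. Of its 19259 narrow peaks, 54.8% were found in all 29 other lists, 1920 were missing from 1 list, 1749 were missing from 2, and 6 were found in none. The single list that lacked a peak most often was stem replicate 1, which alone lacked 645, followed by hda6 replicate 2 with 436, root replicate 2 with 157 and sdg2-4 replicate 2 with 127. At the edges of the rule, 57 sites were 790 to 799 bp wide with a median fold of 6.10 in Col-0 shoot replicate 1, and 48 peaks of 800 to 809 bp had a median fold of 7.16. The 1920 narrow peaks that missed 1 list had a median fold of 4.34, against 5.92 for the narrow sites in all lists and 3.69 for narrow peaks absent from at least 1 list.

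**Figure D1:**
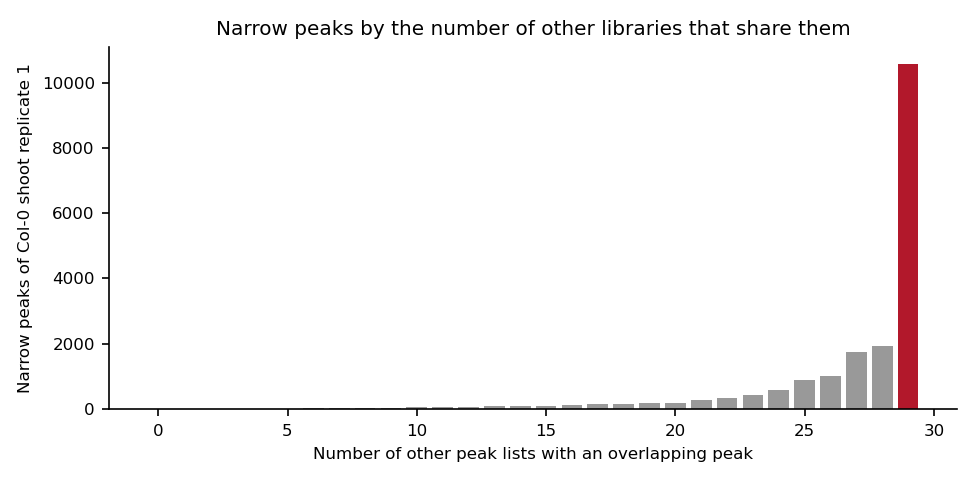
Narrow peaks of Col-0 shoot replicate 1 by the number of other lists that share them (x axis, 0 to 29 lists; y axis, number of peaks). The bar at 29 holds the 10562 narrow sites, and the next bar, at 28 lists, holds 1920 peaks.

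The narrow sites sat at the ends of genes. A summit lay within 500 bp of an end of a protein-coding gene in 7887 of 10562 sites, which is 74.7% (exact 95% binomial interval 73.8 to 75.5, counting error only). Narrow peaks that were missing from some list did so in 65.2%, wide peaks open in all lists in 63.8%, and 35.3% of the bases of the chromosomes lie that close to such an end. The classes were not matched for height. Their median fold was 5.92 at the narrow sites, 3.69 at narrow peaks missing from some list and 6.59 at the wide peaks. The part of height in these differences was not tested. The gene table used gives no strand, so a start and an end of a gene cannot be told apart.

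The position was also close in detail. The median distance from summit to gene end was 133 bp at the narrow sites, 179 bp at narrow peaks missing from some list and 320 bp at the wide peaks open in all lists. The first 50 bp outside a gene held the most summits, 13.9% of them against 1.89% of bases. Summits lay outside any gene in 68.9%, deep in a gene in 4.38% and more than 500 bp outside in 20.9%. Taller sites were nearer: in classes of equal size from the lowest to the highest fold, with medians of 4.65, 6.22, 7.96 and 11.1, the share near a gene end was 62.2%, 72.2%, 78.3% and 86.0%.

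**Figure D2:**
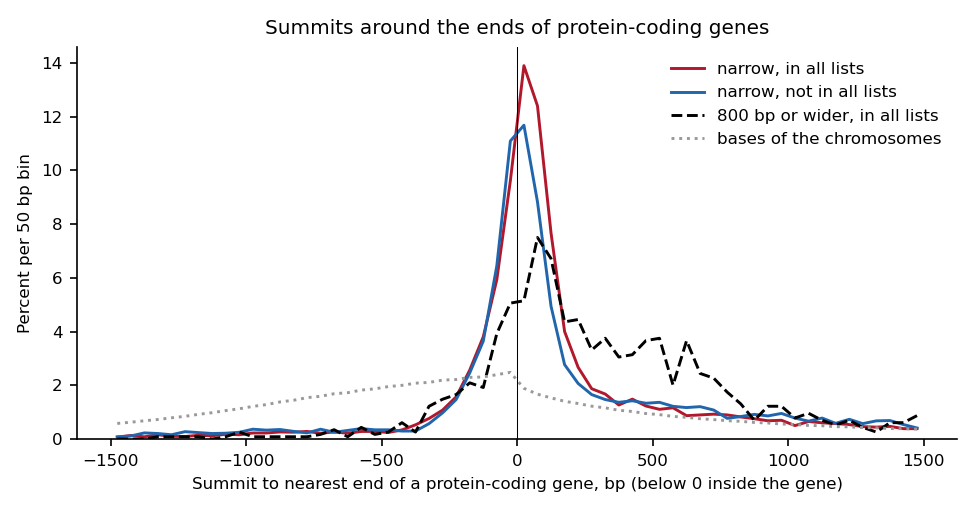
Position of summits relative to the nearest end of a protein-coding gene (x axis, bp, outside and inside the gene; y axis, percent of summits per 50 bp) for the narrow sites, the comparison peaks and all bases. The narrow sites reach 13.9% in the first 50 bp outside the gene, where 1.89% of bases lie.

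A narrow site was often shared by neighbours. At 2947 sites, 27.9%, at least 2 protein-coding genes lay within 500 bp of the summit, against 22.3% for narrow peaks missing from some list and 12.4% for wide peaks open in all lists. In all, 9988 of 27444 protein-coding genes, 36.4%, had a narrow site, of which 8656 had 1, 1289 had 2 and 43 had 3 or more. The share varied little between chromosomes, from 37.2 to 39.6 sites per 100 genes. Sites were a median of 6531 bp apart, and 684 gaps, 6.48%, were under 1000 bp. Windows of 100 kb with under 25% of protein-coding gene sequence held 209 sites, 1.98%, while 15.6% of bases lie in such windows.

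Genes for small RNAs of the translation and splicing machinery also carried them. A tRNA gene, which is read by RNA polymerase III, was the nearest gene at 124 sites, 1.17% of the narrow sites against 0.471% of the narrow peaks missing from some list. Of the 625 tRNA genes listed, 229 (36.6%) had a narrow site within 500 bp, whether or not another gene was nearer. That is close to the 36.4% of protein-coding genes. A narrow site also lay within 500 bp of 38 of 82 genes for spliceosomal snRNA (46.3%). For snoRNA, which guides modification of ribosomal RNA, it was 100 of 287 (34.8%). For miRNA it was 34 of 326 (10.4%), and for pseudogenes 93 of 3917 (2.37%).

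The share of genes with a narrow site was high in the lists of translation, splicing, clock and reference genes and low in the root and secondary wall lists. The difference between lists was not tested. The rule asks for a peak in root, stem and shoot alike, so it disfavours genes opened in some organs, and the contrast is a description. A narrow site was present at 5 of 6 translation factor genes, 9 of 12 splicing genes, 10 of 14 circadian clock genes, 14 of 20 reference genes used in expression assays, 17 of 27 cytosolic ribosome genes and 13 of 25 proteasome genes. The share over all protein-coding genes was 36.4%. Of 17 photosynthesis genes 9 had one, of 21 genes for DNA methylation and histone enzymes 7, of 18 secondary wall genes 3 (IRX10, KNAT7 and WOX4), and of 16 root genes 1, GL2, which represses root hair fate. The other 8 photosynthesis genes had a peak that was missing from some list, whereas 12 of the root genes and 14 of the secondary wall genes had no peak summit of Col-0 shoot replicate 1 in the gene or within 500 bp of it. For the tissue markers above the window was wider, since any overlap of a peak with the gene or the 1000 bp on either side counted.

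Widths and summits were stable but not fixed. In Col-0 shoot replicate 1 the widths ran from 161 to 799 bp with a median of 386 bp and quartiles of 297 and 510 bp. The first site by position with the smallest width lay on chromosome 1 at 11806973 to 11807133 of TAIR10, and the site at ACT7 was equally narrow. The widest lay on chromosome 5 at 21818937 to 21819735. In the other libraries the median width was 430 bp, and library medians ran from 357 bp in ros1-4 replicate 2 to 596 bp in gcn5 replicate 2. Of the 10562 sites, 6644 (62.9%) stayed under 800 bp in all lists, 9375 (88.8%) had in every list a peak that no other site shared, and 4 were 800 bp or wider in all other lists.

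Summits moved little. The median distance between the summit in Col-0 shoot replicate 1 and the summit of the matching peak was 25 bp, and it was within 100 bp in all lists at 5767 sites, 54.6%. Within 50 bp in all lists were 1364 sites, 12.9%.

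Heights differed among the groups at most sites, while presence was fixed by the rule and could not differ. A limma F test on the normalised log2 fold of 29 libraries, without the library that chose the widths, called 8184 narrow sites (77.5%) as differing among the 15 groups at a Benjamini-Hochberg adjusted p under 0.05. The percentage over all 11708 sites tested, the wide peaks open in all lists included, was 77.4. Among the 13 shoot genotypes 5595 narrow sites (53%) were called, against 52.6% of all sites tested. The differences were small: the SD of a site over group means had a median of 0.196 on the log2 scale, beside a median SD within groups of 0.142. Because a site that closed in any library could not be a member, these counts cover changes in height only.

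Some sites were tall and steady in every library. The site at ASY1, which encodes a protein of the meiotic chromosome axis, was among the 10 with the highest median fold. Its fold was 13.9 and 15.1 for root, 13.1 and 14.2 for stem, 17.1 and 17.6 for Col-0 shoot and 16.3 to 29.3 for the 24 mutant libraries. Its SD over group means of normalised log2 fold was 0.0701, and the F test gave an adjusted p of 0.218 (limma with Benjamini-Hochberg adjustment). The site at PLE, a protein that bundles microtubules in dividing cells, had an SD of 0.0556, and its fold was 7.59 and 8.49 for root, 7.56 and 7.77 for stem, 8.74 and 9.19 for Col-0 shoot and 8.84 to 14.7 for the mutants. The smallest SD, 0.0548, was found at AT1G65820, and the site at SPL12, a transcription factor gene of the SBP family, was also among the 5 smallest with folds of 9.48 to 19.1. Steady sites chosen for their small SD are a description and carry no test.

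Other sites stayed open everywhere and still changed several-fold. The largest SD, 0.849, was found at a site with no gene within 500 bp, on chromosome 4 at 3054311 to 3054785. Its fold was 33.5 and 27.6 for met1-9, 15.8 and 11.1 for stem, 11 and 10.1 for root, 5.53 and 5.38 for Col-0 shoot and 3.2 and 3.44 for gcn5 ros1-4. Both met1-9 libraries stood above all others there. The site at CKS, an enzyme that activates a sugar of the cell wall pectin, lies on chromosome 1 at 19744183 to 19744702 and had an SD of 0.765. Its fold was 18.7 and 19.7 for met1-9, 16.6 and 14.9 for nrpd1-3 ros1-4, 13.3 and 13.4 for hda6, 7.24 and 6.44 for Col-0 shoot, 3.84 and 3.99 for rdd-2 and 2.88 and 3.53 for drdd. The rdd-2 and drdd libraries were low and did not overlap with Col-0 shoot, whereas ros1-4, at 7.92 and 6.81, did.

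**Figure D3:**
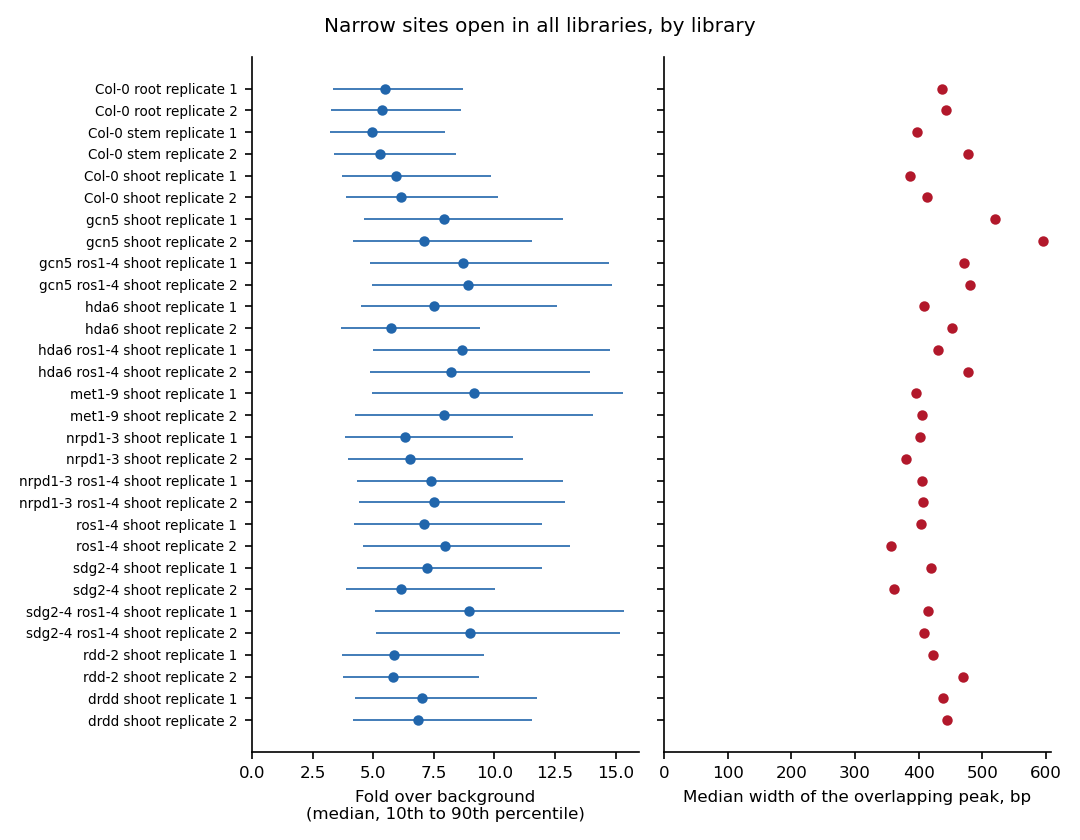
Narrow sites in each of the 30 libraries (1 row per library): median fold with the range from the 10th to the 90th percentile, and width. Median folds run from 4.94 in stem replicate 1 to 9.15 in met1-9 replicate 1, and median widths from 357 to 596 bp.

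Between organs, 1948 to 3043 narrow sites were called per comparison. Root was higher than stem at 1503 narrow sites (14.2%, against 13.7% of all sites tested) and lower at 1540 (14.6%, against 15.2%), so 28.8% were called beside 28.9% overall. Root against shoot gave 1168 higher (all sites tested 10.6%) and 1277 lower (12.4%), together 23.1% beside 23%. Stem against shoot gave 929 higher (8.76%) and 1019 lower (9.55%), together 18.4% beside 18.3%. The comparisons are from limma with Benjamini-Hochberg adjustment, and those with shoot rest on 1 Col-0 shoot library, replicate 2, which is assumed to vary like the others and which both share. Their median SE was 0.175 on the log2 scale, against 0.143 in root against stem, so the counts give no order of the comparisons. The median absolute log2 difference was 0.259 in root against shoot, 0.245 in stem against shoot and 0.237 in root against stem, and 301, 173 and 193 called sites passed a log2 difference of 1. Without root replicate 1, root against stem fell from 3043 called sites to 1989, and with the other Col-0 shoot library added, stem against shoot rose from 1948 to 2933.

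Most sites of the photosynthesis list, which holds antenna and photosystem genes, Rubisco and its activase and GLK2, were lower in root. Of the 9 sites 7 fell in root against stem (15.2% of all sites tested) and 7 fell in root against shoot (12.4%), with none higher, by limma with Benjamini-Hochberg adjustment. Their median log2 differences were −0.52 and −0.78, beside 0.0108 and 0.00101 over all sites tested. In stem against shoot 1 fell, at GLK2, a transcription factor of chloroplast development. Leaving out either root library kept 7 calls in root against shoot, and leaving out any 1 root or stem library left 5 or 6 in root against stem.

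The site at LHCA1, an antenna protein of photosystem I, lies on chromosome 3 at 20340997 to 20341374. Its fold was 2.48 and 2.35 for root, 7.07 and 6.29 for stem, 5.79 and 6.44 for Col-0 shoot and 6.23 to 12.2, median 8.37, for the mutants. Root did not overlap with any other group. Its log2 difference was −1.64 (SE 0.13, adjusted p 1.81e-09, limma) against stem and −1.29 (SE 0.15) against shoot.

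The site at LHCB5, an antenna protein of photosystem II, had folds of 3.44 and 3.09 for root, 6.30 and 7.97 for stem and 8.92 and 10.1 for Col-0 shoot. Root was again below all others, with log2 differences of −1.27 against stem and −1.49 against shoot (SE 0.14, adjusted p 7.36e-08, limma). LHCB1.1 had log2 differences of −0.92 and −0.87 in the same order, and LHCB6 of −0.52 and −0.75. PSAF, a subunit of photosystem I, had −0.62 and −0.78, and RCA, the activase of Rubisco, −0.36 and −0.72.

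The other 3 photosynthesis sites lacked a call in 1 or both comparisons. LHCA4 was called against stem, at −0.49, but not against shoot, at −0.15. GLK2 was 0.16 against stem, not called, and −0.80 against shoot. Its stem folds of 3.50 and 4.14 were below its root folds of 4.30 and 4.38, and Col-0 shoot had 7.72 and 8.39. RBCS1A, a small subunit of Rubisco, was called in neither, with folds of 4.67 and 4.91 for root, 5.03 and 5.31 for stem and 6.40 and 5.16 for Col-0 shoot. In bulk tissue, fewer open cells and less opening per cell cannot be told apart.

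**Figure D4:**
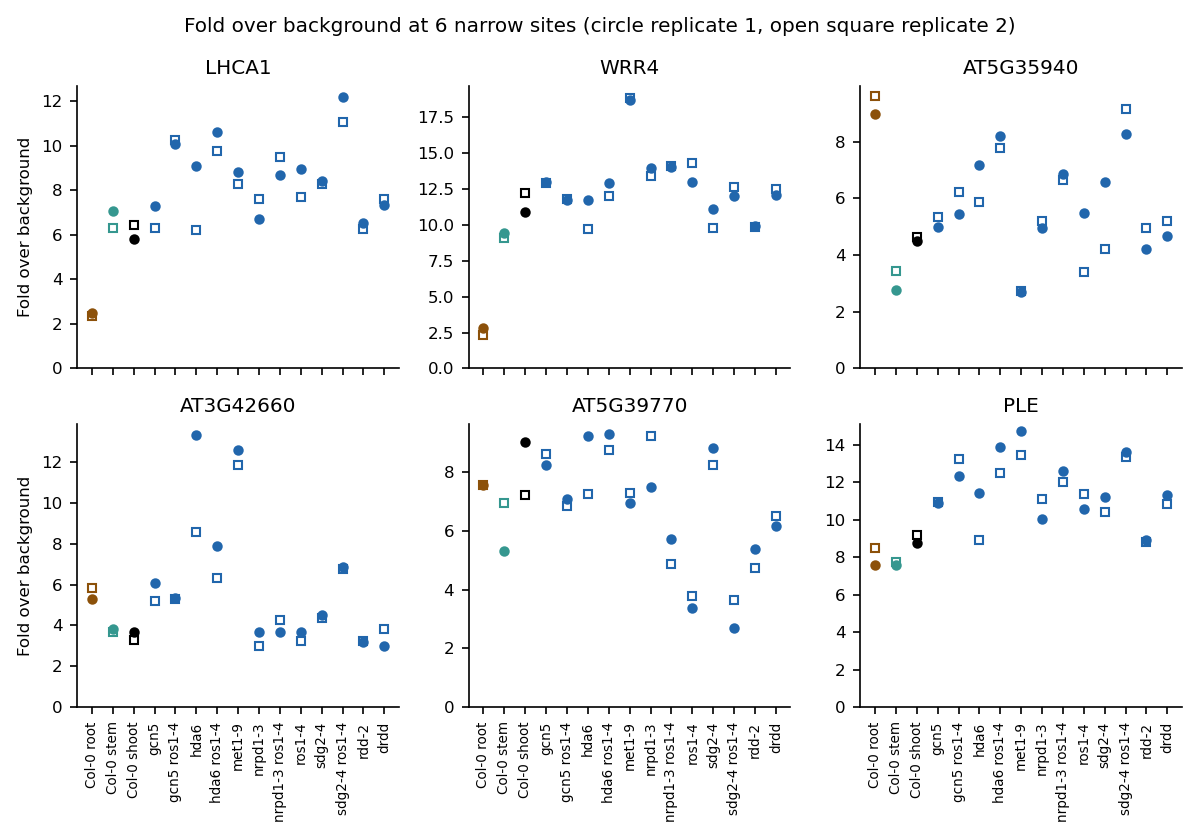
Fold over background at 6 narrow sites in all libraries (points, 2 per group; y axis, fold as deposited). LHCA1 and WRR4 are lowest in root, AT5G35940 is highest in root and in sdg2-4 ros1-4, AT3G42660 is high in met1-9 and hda6, AT5G39770 is low in ros1-4 and sdg2-4 ros1-4, and PLE stays between 7.56 and 14.7.

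The largest single fall in root was at WRR4, an intracellular immune receptor for white rust, on chromosome 1 at 21167149 to 21167722. Its fold was 2.81 and 2.32 for root, 9.41 and 9.07 for stem, 10.9 and 12.2 for Col-0 shoot and up to 18.8 in met1-9. The log2 difference was −2.04 (SE 0.10, adjusted p 2.26e-13, limma) against stem and −2.13 (SE 0.12) against shoot. SVL2 and CSLC5, the latter a member of a family of xyloglucan synthases, were next against shoot at −1.75 and −1.72, and LBD21, of a plant family of transcription factors, was next against stem after LHCA1 at −1.64, with its root summits 333 and 339 bp away. CSLC5 had folds of 2.03 and 2.46 for root, 4.24 and 3.60 for stem and 8.09 and 7.84 for Col-0 shoot, so stem lay between.

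Rises in root against stem were led by AT5G35940, on chromosome 5 at 14090028 to 14090603. Its fold was 8.98 and 9.61 for root, 2.78 and 3.45 for stem and 4.48 and 4.64 for Col-0 shoot. The log2 difference was 1.71 (SE 0.18), followed by AT3G15120 at 1.70 and AT1G56145 at 1.59. GL2 rose by a log2 difference of 0.92 against stem, with folds of 4.89 and 5.07 for root and 2.68 and 2.84 for stem. KNAT7, a regulator of secondary walls, was higher in root than in stem by 0.76, with folds of 4.45 and 4.79 against 2.86 and 2.80.

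Against shoot, the site at BAG2, a co-chaperone, had the highest value in root, stem, gcn5 and hda6 alike, and its values mix different peaks. In 19 lists it was matched to a merged peak that another site shared, and in the others to a narrow peak of its own. Its own narrow peaks had folds of 3.02 to 5.96, and the merged peaks 11.6 to 17.5 with a summit 759 to 809 bp away. The next in stem were AT5G05835, annotated as a long non-coding RNA, at 1.83 and AT2G16990 at 1.66. Sites lower in stem than in shoot were led by AT4G03065 at −1.62, AT1G52200 at −1.54 and RGXT2, a xylosyltransferase of pectin synthesis, at −1.53. RGXT2 had folds of 3.71 and 3.38 for stem, 5.07 and 4.93 for root and 11.6 and 11.5 for Col-0 shoot.

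The direction of the organ differences was counted by position. Of the 2947 sites with at least 2 genes close by, root was higher than stem at 476 and lower at 282, and stem was higher than shoot at 115 and lower at 384. Of the 2212 sites more than 500 bp outside genes root was higher than stem at 225 and lower at 488, and stem was higher than shoot at 346 and lower at 137. The shares among all sites tested are those given above, 13.7% and 15.2% for root against stem and 8.76% and 9.55% for stem against shoot. Leaving out 1 root or stem library left 280 to 422 higher and 188 to 233 lower in root against stem at the first class, and 139 to 172 and 343 to 430 at the second. These are counts within the narrow sites, and the difference between the position classes was not tested.

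Sites whose nearest gene was a tRNA gene rose in stem, root and gcn5 relative to Col-0 shoot more often than they fell. In stem 28 of 124 rose and none fell, in root 24 rose and 4 fell, and in gcn5 16 rose and none fell, by limma with Benjamini-Hochberg adjustment. Their median log2 differences were 0.25, 0.21 and 0.17, beside −0.00227, 0.00101 and −0.0197 over all sites tested, of which 8.76%, 10.6% and 3.07% rose. In rdd-2 and drdd none of them was called, and in met1-9 5 rose and 4 fell. In hda6 4 rose and in sdg2-4 2 rose, with none lower, against 1.36% and 0.615% of all sites tested. Median log2 differences were 0.078 in hda6, 0.12 in sdg2-4 and 0.077 in rdd-2. They were −0.007 in drdd, −0.027 in met1-9 and −0.042 in nrpd1-3. The stem, root and gcn5 comparisons use the same Col-0 shoot library, and 9 sites were called in all 3. Leaving out 1 gcn5 library left 6 or 7 rises in gcn5, leaving out 1 stem library left 20 to 25 for stem, with 2 falls without stem replicate 2, and leaving out 1 root library left 18 to 22 for root.

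In single libraries the same sites were lower in Col-0 shoot than in stem, root and gcn5, but not than in all other shoot libraries. The median fold of the 124 sites over the median of all narrow sites was 0.924 and 0.896 for Col-0 shoot, 1.07 and 1.1 for stem, 1.05 and 1.02 for root and 1.04 and 1.07 for gcn5. It was lowest in met1-9, at 0.834 and 0.831, and was also below 1 in nrpd1-3, at 0.865 and 0.864. In drdd it was 0.935 and 0.920, close to Col-0 shoot, and in gcn5 ros1-4 it was 0.971 and 1.003. In rdd-2 it was 0.995 and 0.972, in sdg2-4 0.980 and 0.983, in hda6 0.967 and 0.9545 and in hda6 ros1-4 0.949 and 0.986. The libraries of rdd-2, sdg2-4, hda6, hda6 ros1-4, gcn5 ros1-4, stem, root and gcn5 did not overlap with Col-0 shoot. One example is AT4G31075, on chromosome 4 at 15120550 to 15120946, with folds of 11.2 and 8.76 for root, 8.86 and 12.1 for stem, 7.24 and 7.28 for Col-0 shoot and 15.3 and 13.8 for gcn5. Another is AT1G20820, on chromosome 1 at 7242590 to 7242802, with 4.73 and 4.93 for root, 4.91 and 5.26 for stem, 4.35 and 3.27 for Col-0 shoot and 7 and 7.57 for gcn5. Genes for tRNA occur in near-identical copies, so reads may be assigned among them.

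**Figure D5:**
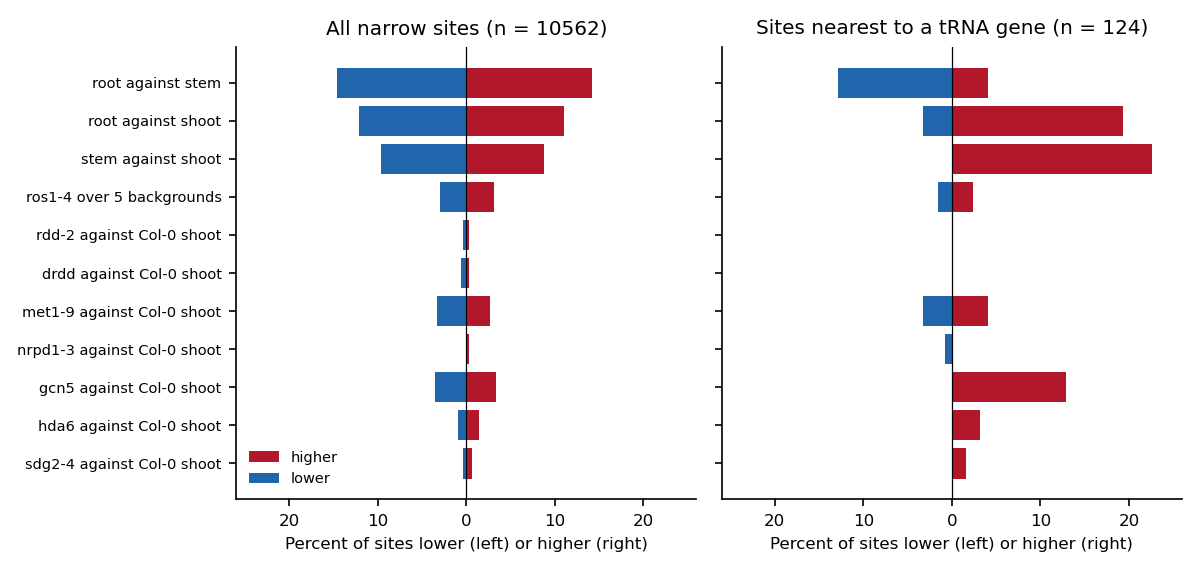
Narrow sites called higher (right) or lower (left) in each comparison by limma, as a percent of all 10562 narrow sites and of the 124 sites nearest to a tRNA gene. Among the tRNA sites stem against shoot has 28 higher and none lower, and gcn5 has 16 higher and none lower.

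Loss of ROS1 moved the heights of narrow sites little. Averaged over 5 pairs (ros1-4 against Col-0 and each double against its single mutant), 327 narrow sites were higher (3.10%, against 2.9% of all sites tested) and 309 lower (2.93%, against 3.29%), together 6.02% beside 6.19%. The median size of a called log2 difference was 0.25, the largest was 0.91, and none passed 1. Of the 636 called sites 428 had the same sign in all 5 pairs and 163 in 4. The count was not stable: it was 205 without gcn5 ros1-4 replicate 2 and 1428 without hda6 replicate 1. It moved by more than 1.5 times without replicate 2 of ros1-4, gcn5 or sdg2-4, without nrpd1-3 replicate 1, without either hda6 library and without any 1 library of the doubles. Over the 3 pairs whose peak names carry numbers of 1 range (Col-0, nrpd1-3 and gcn5) it was 186, with 81 higher and 105 lower.

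The largest change was a fall at AT5G39770, on chromosome 5 at 15927666 to 15928091. Its fold was 9.03 and 7.22 for Col-0 shoot against 3.38 and 3.77 for ros1-4, and 8.83 and 8.23 for sdg2-4 against 2.69 and 3.63 for sdg2-4 ros1-4. In hda6 it was 9.24 and 7.26, against 9.29 and 8.74 in hda6 ros1-4, which overlap. The log2 difference was −0.91 (SE 0.07, adjusted p 2.64e-09, limma) and ran from −1.75 to −0.22 over the 5 pairs.

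AT2G27700 fell by 0.71 on average, and its log2 difference lay between −0.95 and −0.42 in the pairs. Its fold was 6.25 and 5.97 for Col-0 shoot, 4.25 and 4.53 for ros1-4, 6.47 and 6.62 for gcn5 and 3.16 and 4.11 for gcn5 ros1-4. AT3G44590 fell by 0.74, with log2 differences between −1.33 and −0.05 in the pairs and folds of 10.5 and 10.7 for nrpd1-3 and 12.5 and 11.4 for nrpd1-3 ros1-4. Rises were led by PGI1, an isomerase of plastid sugar phosphates, at 0.46, VCR at 0.40 and FDH at 0.39, averaged over the pairs. In single pairs the log2 difference ran from −0.02 to 1.1 at PGI1, from 0.24 to 0.56 at VCR and from 0.03 to 0.91 at FDH, so PGI1 did not rise in the nrpd1-3 pair. Over the 3 pairs of 1 number range, VCR was 0.41 and not called (adjusted p 0.0618, limma), and the other 5 sites were called in the same direction.

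The site at ROS1 itself, named DML1 in the gene table, lies on chromosome 2 at 15307764 to 15308085, 1 bp from the end of the gene. Its fold was 7.18 and 9.10 for root, 5.46 and 6.44 for stem, 8.56 and 9.92 for Col-0 shoot and 7.30 to 17.7, median 11.8, for the mutants. It was higher in root than in stem by a log2 difference of 0.39 and was not called in ros1-4, with a mean log2 difference of 0.02 (SE 0.07).

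Part of the falls in ros1 mutants lay in 1 stretch of chromosome 2. Between 3.2 and 3.55 Mb, an insertion of mitochondrial DNA with near-identical copies in the organelle, 109 narrow sites were found. Of these 2 were higher and 30 lower in ros1-4 over 5 pairs, while elsewhere 325 were higher and 279 lower. Their median log2 difference was −0.14, and leaving out 1 library left 12 to 42 lower. Over the 3 pairs of 1 number range, 2 were higher and 1 lower. The ratio of their median fold to that of all narrow sites was 1.34 and 1.27 for Col-0 shoot, 1.17 and 1.27 for ros1-4, 1.54 and 1.47 for root and 0.998 and 1.04 for gcn5 ros1-4. These sites moved together in other comparisons too. The log2 difference was above 0 at 4 of the 109 in ros1-4, but at 104 in rdd-2, which also lacks ROS1, and at 1 in drdd. Against Col-0 shoot it was above 0 at 106 in root, 103 in stem, 63 in nrpd1-3 and 59 in sdg2-4. It was above 0 at 24 in met1-9, 8 in gcn5 and 5 in hda6. The part of reads from the organelle in the values at these sites was not tested.

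Few narrow sites were called in the other demethylase mutants, each set against 1 Col-0 shoot library. Their median SE was 0.175 on the log2 scale, against 0.067 in ros1-4 over 5 pairs. The counts therefore give no order between these mutants and ros1-4. In rdd-2 28 narrow sites were higher (all sites tested 0.239%) and 43 lower (0.376%), together 0.672% beside 0.615%. In drdd 32 were higher (0.273%) and 61 lower (0.589%), together 0.881% beside 0.863%. Leaving out either rdd-2 library left 29 called sites, and leaving out a drdd library left 50 or 52. With median centring in place of quantile normalisation the split was 3 higher and 18 lower in rdd-2 and 16 and 57 in drdd.

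The falls were large at single sites. AT3G01425, on chromosome 3 at 1101037 to 1101788, had folds of 10.1 and 10.4 for Col-0 shoot, 3.17 and 2.60 for rdd-2, 5.57 and 4.98 for drdd and 4.63 and 6 for ros1-4. All 6 demethylase mutant libraries were below both Col-0 shoot libraries, and in both drdd libraries the matched summit lay 516 bp away. Its log2 difference in rdd-2 was −1.94 (SE 0.15, adjusted p 1.71e-08, limma). The same site had 14.8 and 13.6 in nrpd1-3 ros1-4, above Col-0 shoot. ATPK7, a protein kinase, had 7.34 and 7.84 for Col-0 shoot, 2.69 and 2.60 for rdd-2, 3.78 and 3.56 for drdd and 4.06 and 5.56 for ros1-4, with a log2 difference in rdd-2 of −1.67.

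In drdd the named falls were FAMT, a methyltransferase, at −1.91, AT3G04443 at −1.89 and AT3G47250 at −1.70. The named rises, AT5G49470 and HEMA2, an enzyme of tetrapyrrole synthesis, in rdd-2 and drdd and AT3G04480 in rdd-2, were at sites that shared a peak with another site in 21, 6 and 8 lists, and leaving out either rdd-2 library ended the call at all 3 sites in rdd-2.

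The met1-9 comparison called more narrow sites than nrpd1-3, each against the same Col-0 shoot library. In met1-9 286 were higher (all sites tested 2.47%) and 348 lower (3.42%), together 6% beside 5.88%. In nrpd1-3 31 were higher (0.273%) and 9 lower (0.0769%), together 0.379% beside 0.35%. Without met1-9 replicate 1 the first count was 386, and without either nrpd1-3 library the second was 12 or 20. In gene-poor windows 6 of 209 narrow sites rose and 24 fell in met1-9, and leaving out 1 met1-9 library left 3 to 5 and 16 to 27. With median centring met1-9 had 315 higher and 624 lower.

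The highest log2 difference in met1-9 was at AT3G42660, on chromosome 3 at 14750865 to 14751217. Its fold was 12.6 and 11.9 there, 13.3 and 8.60 for hda6, 7.91 and 6.33 for hda6 ros1-4 and 3.69 and 3.27 for Col-0 shoot. The log2 difference was 1.5 in met1-9 and 1.72 in hda6 (SE 0.19 in both, adjusted p 2.75e-05 and 1.11e-05, limma), and these share the Col-0 shoot library. The matched summit lay 505 and 563 bp from that of Col-0 shoot replicate 1 in met1-9 and 503 and 221 bp in hda6, against 4 bp in Col-0 shoot replicate 2, so the higher folds are those of another summit than at this 353 bp site. PLL4, a phosphatase related to POLTERGEIST, fell by 1.49 on the log2 scale in met1-9, with folds of 2.40 and 2.16 against 5.12 and 5.89 in Col-0 shoot, and MES7, a methyl esterase, fell by 1.41. WOX4, a regulator of the cambium, was −0.98, and AGO4, which binds small RNAs in RNA-directed DNA methylation, was −0.58. The site near MET1 was −0.51.

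In nrpd1-3 the rises included RDR1, an RNA-dependent RNA polymerase, and UMAMIT45, of a transporter family. RDR1 had folds of 11.2 and 11.3 for nrpd1-3, 10.9 and 8.15 for nrpd1-3 ros1-4, 14.8 and 15.9 for met1-9 and 5.53 and 4.85 for Col-0 shoot. Its log2 difference in nrpd1-3 was 1.15 (SE 0.18, adjusted p 0.00374, limma). UMAMIT45 had 9.65 and 10.8 for nrpd1-3, 12.1 and 13.8 for met1-9 and 5.35 and 4.50 for Col-0 shoot. Without nrpd1-3 replicate 2 UMAMIT45 was not called. At both sites the nrpd1-3 and met1-9 libraries lay above Col-0 shoot without overlap. At RDR1, however, the matched summit lay 237 and 236 bp away in nrpd1-3 and 152 and 237 bp away in nrpd1-3 ros1-4. It lay 354 and 307 bp away in met1-9, against 9 bp in Col-0 shoot replicate 2. The higher folds at RDR1 are therefore those of another summit than at this 270 bp site.

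Among the mutants of histone-modifying enzymes, gcn5 had the most narrow sites called. The counts of gcn5 and hda6 after leaving out 1 library overlapped, so their order is not settled. In gcn5 351 were higher (all sites tested 3.07%) and 372 lower (3.68%), together 6.85% beside 6.75%. In hda6 150 were higher (1.36%) and 100 lower (0.948%), together 2.37% beside 2.31%. In sdg2-4 71 were higher (0.615%) and 42 lower (0.401%), together 1.07% beside 1.02%. Leaving out gcn5 replicate 1 or 2 left 338 or 180, and sdg2-4 replicate 2 left 53. Without hda6 replicate 1, hda6 had 388 called sites with 179 higher and 209 lower, so the larger direction changed, and without replicate 2 it had 139, with 82 higher and 57 lower. With median centring gcn5 had 243 higher and 411 lower, hda6 129 called sites and sdg2-4 41. With Col-0 shoot replicate 1 in the fit the counts were 1766 in gcn5, 666 in hda6 and 357 in sdg2-4.

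The tall site at AT3G20365, on chromosome 3 at 7104240 to 7104522, fell in gcn5. Its fold was 11.7 and 9.33 for gcn5, 20.7 and 17.0 for gcn5 ros1-4, 39.6 and 39.9 for Col-0 shoot and 12.4 and 10.8 for root, and the log2 difference in gcn5 was −1.60 (SE 0.11, adjusted p 6.60e-10, limma). AT2G05395, in the mitochondrial insertion of chromosome 2, fell by 2.16 on the log2 scale, with folds going from 45.4 and 48.0 in Col-0 shoot to 10.9 and 8.53. ORP3B, of a family of oxysterol-binding proteins, rose by 1.51, with folds of 9.43 and 11.5 against 4.74 and 3.27. It also stood at 9.24 and 9.97 for gcn5 ros1-4 and at 9.82 and 7.74 for met1-9.

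In hda6, falls were found at AOS, which starts jasmonate synthesis, and at ETR2, an ethylene receptor. AOS had folds of 2.73 and 2.09 for hda6 and 4.93 and 5.10 for Col-0 shoot, a log2 difference of −1.29, and the summit in hda6 replicate 1 lay 336 bp away. ETR2 had 3.61 and 4.17 for hda6, 8.70 and 8.06 for hda6 ros1-4 and 6.28 and 7.65 for Col-0 shoot, a log2 difference of −1.12. In sdg2-4, GS2, the chloroplast glutamine synthetase, rose by 1.18, with folds of 11 and 9.26 against 5.27 and 4.33. ELC, of the ESCRT machinery, fell by 1.09 on the log2 scale, with folds going from 5.16 and 8.64 to 4.85 and 4.23, where only the second Col-0 shoot library enters the fit.

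Housekeeping sites also varied. Of the 17 narrow sites of the reference gene list 10 differed among the 15 groups, beside 77.4% of all sites tested, and their median SD over group means was 0.163 against 0.196 over all narrow sites. ACT7, an actin gene with a site 161 bp wide on chromosome 5 at 3051990 to 3052150, had folds of 4.94 and 4.96 for root, 3.29 and 3.35 for stem and 2.79 and 2.64 for Col-0 shoot, a log2 difference of 1.23 in root against shoot. The ribosome list had 13 of 20 sites called among groups with a median SD of 0.175, the proteasome list 11 of 16 with 0.179, and the splicing list 6 of 10 with 0.163. In the proteasome list 5 of 16 sites were higher in root than in stem and none lower, against 13.7% and 15.2% of all sites tested. PRP8A, the core of the spliceosome, was 0.50 in root against stem and 0.66 in gcn5.

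Clock genes had tall sites. Their 11 sites had a median fold of 11.7, beside 7.03 for all narrow sites, and 8 differed among groups, beside 77.4% of all sites tested. CHE, a TCP factor that binds the CCA1 promoter, changed most, with folds of 4.98 and 5.18 for root, 5.17 and 4.74 for stem and 2.60 and 2.93 for Col-0 shoot. Its log2 difference was 1.08 in root and 1.13 in stem, but these libraries were partly matched to another summit: it lay 633 and 646 bp from that of Col-0 shoot replicate 1 in stem and 78 and 1549 bp in root. TOC1, an evening repressor, was lower by 0.43 and 0.47 in root and stem than in shoot on the log2 scale. CCA1, its morning counterpart, was −0.17 in ros1-4 over 5 pairs (SE 0.05, adjusted p 0.0421, limma). GRP7, an RNA-binding protein under clock control, was steady at 12.5 and 12.4 for root, 12.3 and 12.5 for stem, 14.5 and 15.6 for Col-0 shoot and 12.6 to 25.7 for the mutants, with an adjusted p of 0.191 among groups (limma F test).

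The list of DNA methylation and histone enzymes had 8 narrow sites. Among them 4 were called in root against stem (28.9% of all sites tested), 3 in root against shoot (23%), 1 in stem against shoot (18.3%), 4 among the shoot genotypes (52.6%) and 2, both lower, in met1-9 (3.42% lower). At MET1, CMT2, DDM1, RDR2 and the second site of AGO6 another gene was nearer to the summit than the listed one. The site at CMT2, which methylates cytosines outside CG sites, is nearer to NLM1 and had folds of 3.2 and 3.18 for root, 4.74 and 5.06 for stem and 5.13 and 6.75 for Col-0 shoot, with log2 differences of −0.72 against stem and −0.92 against shoot. AGO4 had 10.2 and 8.92 for root, 6.16 and 7.48 for stem and 7.24 and 7.78 for Col-0 shoot, with 0.44 and 0.54. The second site of AGO6, which is nearer to COP1, a regulator of light responses, was 0.64 in root against shoot. The site at DDM1, a chromatin remodeller, is nearer to the tRNA gene AT5G66755 and was 0.36 in root against stem. RDR2, which makes double-stranded RNA in the same pathway, was not called, and its F test gave an adjusted p of 0.0872 (limma).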

How the data were processed

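The authors' deposited peak lists of 30 ATAC-seq libraries were used. Per the submitters' processing notes, FastQC, BWA, SAMtools, GATK and MACS2 were applied on TAIR10, with no versions named. The authors' deposited fold divides the fragment pileup at a peak's summit by its local background (a ratio). Columns of −log10 p-values and −log10 q-values came with the lists as deposited by the authors, and the deposited score equals 10 times the −log10 q to within 1. The score was not used in any comparison. Depth is not stated, so background and pileup were recovered by inverting the Poisson p-value, where 100% of 316860 pileups came out whole to within 0.05.

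From these lists the narrow sites, their positions against a RefSeq gene table (TAIR10.1, names and neighbourhood only) and the matching peak with the nearest summit in each list were taken. The log2 fold was quantile-normalised over 11708 sites and tested with limma 3.58.1 in R 4.3.3 (trend, group means, Benjamini-Hochberg adjustment), with tables made in Python 3.11.15. In simulated data with 200 sites changed by a log2 of 1, 95.5% were called in root against stem, 99.5% in ros1-4, 84.0% in met1-9 and 78.0% in the test among 15 groups, and 6.37%, 9.95%, 4.55% and 1.89% of the calls were at unchanged sites. In the data, the called log2 differences in ros1-4 over 5 pairs had a median size of 0.25 and a largest of 0.91. The share called at sizes below a log2 of 1 was not tested in any comparison. The members and gene lists were chosen with earlier results of these data known. Named were the 10 tallest sites, the 5 with the smallest and the 5 with the largest spread, the 3 largest called changes in each direction per comparison, the narrowest (first by position among equals) and the widest site, and sites at listed genes. The tRNA genes AT4G31075 and AT1G20820 were named as examples outside this rule. Alternatives were another normalisation, the highest fold among overlapping peaks, Col-0 shoot replicate 1 in the fit, a replicate block, each library left out, windows of 200 and 1000 bp, only sites with a peak of their own and only 3 pairs for ros1-4, the last 2 added after seeing the data. Same-numbered libraries deviated together in some pairs of groups but not in most. The r of their deviations had a median of −0.00139 in 91 comparisons of groups. It lay between −0.300 and 0.403, and was over 0.1 in 12 of them. Promoter motifs were not analysed here.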

Additional observations from a re-analysis of the deposited data

How the results depend on the processing

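No named change reversed its direction in the alternatives run: 590 repeats kept the call and 36 lost it. The named changes were the largest called ones, so refits of the same data could hardly reverse them. With only sites that had a peak of their own, 50 of the 66 named changes were in the fit. The rest dropped out and are not counted as lost. Under median centring ros1-4 over 5 pairs had 1340 called sites, rdd-2 21, nrpd1-3 17, hda6 129 and sdg2-4 41. With Col-0 shoot replicate 1 in the fit, stem against shoot had 2933, rdd-2 148, drdd 168, met1-9 1405, nrpd1-3 170, gcn5 1766, hda6 666 and sdg2-4 357. Over only the Col-0, nrpd1-3 and gcn5 pairs ros1-4 had 186. The share at a gene end was 60.0% within 200 bp and 86.0% within 1000 bp. Median centring, the added Col-0 library and the choice of pairs change the scale or the samples, and the cause of the moves was not tested.

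Leaving out 1 library gave 10562 to 11207 narrow sites, 7658 to 8623 called among 15 groups and 4706 to 6316 among genotypes, 1989 to 2582 in root against stem, 1757 to 1766 in root against shoot and 1397 to 1613 in stem against shoot. It gave 205 to 1428 in ros1-4, 29 in rdd-2, 50 to 52 in drdd, 386 to 657 in met1-9, 12 to 20 in nrpd1-3, 180 to 338 in gcn5, 139 to 388 in hda6 and 53 to 120 in sdg2-4. Col-0 shoot replicate 2 cannot be left out, since no Col-0 shoot library would remain. The replicate number as a block gave 520 in ros1-4 and 3043 in root against stem and changed no count by over 1.5 times, but ended the calls at AT5G49470 in drdd and AT3G66654 in nrpd1-3. The samples share only a number. With only sites that had a peak of their own in every list, ros1-4 had 649 and gcn5 634. The lists give no read counts, and a comparison of 2 groups had a median SE of 0.143 or 0.175 on the log2 scale.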

Other observations

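The tallest narrow sites lay in copies of organelle DNA and at a few small genes. By median fold over the 29 other libraries, AT2G07717 stood first at 57.2 and AT2G07779 next at 41.7, both on chromosome 2, followed by AT3G20365 at 30.0 and a site with no gene within 500 bp on chromosome 4 at 3953422 to 3953713 at 29.1. Near-identical copies can add reads to the sites on chromosome 2. In gene-poor windows 158 of 209 narrow sites, 75.6%, differed among the shoot genotypes, beside 52.6% of all sites tested. There hda6 had 13 higher and 1 lower (1.36% and 0.948% of all sites tested), with 8 to 14 higher after leaving out 1 hda6 library. For ros1-4 over 5 pairs 10 were higher and 23 lower (2.9% and 3.29% of all sites tested), and leaving out 1 library gave 2 to 23 higher and 18 to 28 lower.

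The smallest median absolute log2 difference between group means at the narrow sites was 0.0965, between hda6 ros1-4 and sdg2-4 ros1-4, followed by 0.115 between gcn5 and gcn5 ros1-4. Between the 2 single libraries of a group the median absolute difference ran from 0.0757 in gcn5 ros1-4 to 0.189 in met1-9, and it cannot be set against differences between means of 2 libraries. Both pairs carry neighbouring numbers in their peak names, and preparation and genotype cannot be told apart there. The 66 named changes lay at 57 sites. Of these sites, 10 shared a peak with another site in some list, and 21 had a summit more than 300 bp away in some list.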
